A study of Mus musculus with 8 samples.

Results

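The genes described here encode potassium, sodium and calcium channel subunits, the proteins that set the electrical behaviour of nerve cells. They were taken as the protein-coding genes whose symbols follow the naming stems Kcn, Scn, Cacna1, Cacna2d, Cacnb, Cacng and Hcn, and the rule used no measured value. It found 97 genes of 16913 in the authors' deposited table, out of 138 annotated protein-coding genes with such symbols, and the other 41 are not analysed here. RNA was sequenced from lateral ganglionic eminence (LGE), the embryonic ventral forebrain zone that gives rise to striatal projection neurons, at embryonic day 14.5, in mice of mixed genetic background (C57BL/6J with CD1). The 4 Meis2-CKO samples had the genotype Dlx5/6-Cre;Meis2F/F, with both alleles of the homeobox gene Meis2 floxed. The 4 Ctrl samples were littermates with the genotype Dlx5/6-Cre;Meis2F/+. The Ctrl embryos therefore carried the same Cre driver and 1 floxed allele and were not wild type. Cre driven by Dlx5/6 sequences acts in Dlx-expressing cells, so other cells of the dissected tissue kept their Meis2 alleles.

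The values are the authors' mean expression signal for each genotype, their log2 fold change of Meis2-CKO over Ctrl, and their p-values. No value per embryo was used, because the columns for single libraries carry names that match no sample label, so no spread or standard error stands beside any mean. The sequencing depth is unknown. In the authors' deposited table, Meis2 averaged 140 in Meis2-CKO and 204 in Ctrl, a log2 fold change of -0.53 with an adjusted p of 0.00195 and with 1 value for the whole gene, so the floxed part cannot be seen apart. Of 8 striatal lineage markers, Dlx5 (92.1 in Meis2-CKO, 72.3 in Ctrl) and Gad2 (75.4 in Meis2-CKO, 90.3 in Ctrl) were abundant in both genotypes. Dlx5 was the only 1 of the 8 with a log2 fold change above 0. The other 7 lay below 0, and 5 of them passed the adjusted threshold, among them Isl1 (12.5 in Meis2-CKO, 57.9 in Ctrl) and Ebf1 (3.75 and 21.3). The labels give no sex, and the Y-linked gene Ddx3y averaged 4.03 in Meis2-CKO and 14.1 in Ctrl, while Xist averaged 256 in Meis2-CKO and 78.0 in Ctrl. The part of that difference in the values below was not tested, and only Kcnd1 and Kcne1l of the channel genes lie on the X chromosome.

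Voltage-gated channels open when the membrane depolarizes. Sodium channels carry the upstroke of the action potential, potassium channels repolarize the cell and hold its resting potential, and calcium channels turn electrical activity into calcium entry. Inward rectifiers (Kir) and two-pore-domain (K2P) channels are potassium channels without a voltage sensor of this kind, and HCN channels open on hyperpolarization. Around each pore-forming subunit sit accessory subunits that change its trafficking and gating. Adult striatal projection neurons are known for strong inward rectification and A-type potassium currents, and channel genes in general come on as neurons mature.

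Potassium-selective subunits share a short signature in the pore loop that forms the selectivity filter, and these stretches are shown so that the filter sequence can be compared across the families whose values follow. The longest annotated coding sequence of each gene (GENCODE M21, GRCm38) was searched in frame for codons of threonine, serine or cysteine, then valine, isoleucine or leucine, then glycine, then tyrosine, phenylalanine or leucine, then glycine. All 25 pore-forming Kv genes, all 5 modulatory Kv genes, all 7 Kir genes, all 6 K2P genes and all 3 HCN genes held it. Among 9 calcium- and sodium-activated potassium channel genes 7 did, and the 2 without it, Kcnmb2 and Kcnmb4, encode accessory subunits. No sodium or calcium channel gene matched, and Cacng8 had no complete coding sequence to search. The 3 Kv beta genes Kcnab1, Kcnab2 and Kcnab3 matched through leucine codons although they form no pore. Each line below gives 45 coding bases from 5′ to 3′ with the 15 signature bases in capitals. Kcnk10, as a two-pore-domain subunit, has a stretch for each of its pore loops.
Kcna6: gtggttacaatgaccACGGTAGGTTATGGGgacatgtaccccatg
Kcnd2: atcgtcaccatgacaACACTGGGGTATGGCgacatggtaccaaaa
Kcnc2: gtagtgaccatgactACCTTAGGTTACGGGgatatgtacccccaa
Kcnh1: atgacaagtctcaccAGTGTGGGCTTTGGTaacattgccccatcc
Kcng1: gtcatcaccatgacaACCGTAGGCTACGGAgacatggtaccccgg
Kcns2: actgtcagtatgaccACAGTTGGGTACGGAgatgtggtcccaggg
Kcnj13: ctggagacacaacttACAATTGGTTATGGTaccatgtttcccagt
Kcnk10, first pore loop: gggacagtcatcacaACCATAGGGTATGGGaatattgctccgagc
Kcnk10, second pore loop: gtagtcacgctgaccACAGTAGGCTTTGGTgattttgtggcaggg
Kcnk5, first pore loop: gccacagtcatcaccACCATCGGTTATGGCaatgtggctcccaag
Kcnn1: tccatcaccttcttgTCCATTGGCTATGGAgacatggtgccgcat
Kcnma1: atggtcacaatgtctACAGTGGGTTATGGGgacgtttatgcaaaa
Hcn3: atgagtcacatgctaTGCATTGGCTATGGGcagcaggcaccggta
Most of the signatures shown carry a tyrosine codon in the fourth place, and Kcnh1 and the second pore loop of Kcnk10 carry a phenylalanine codon there, as do the ATP-sensitive pore genes Kcnj8 and Kcnj11, which are not shown. Most open with a threonine codon. Kcnn1 and Kcnh1 open with a serine codon, and Hcn3 opens with a cysteine codon that the other listed HCN genes share.

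None of the 97 channel genes passed an adjusted p of 0.05 in the authors' deposited table. There, 0.78% of all genes and 47 of 13643 protein-coding genes did. None had an unadjusted p under 0.05 either, against 2.17% of all genes and 1.36% of protein-coding genes. Which tool computed them is not stated in the labels or headers. The smallest p of a channel gene was 0.0608, for Cacna1h in the authors' deposited table. A p that misses the threshold does not show that a gene was unaltered, and without values per embryo no interval can be given for any difference. The deposited p-values run high throughout, with 80.2% of all genes and 82.5% of channel genes above 0.5.

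The deposited fold changes of the channel genes lay more often below 0 than above it. Of 97 genes, 63 had a log2 fold change below 0 and 34 above it, which is 64.9% below 0 against 46.1% of all protein-coding genes. Among the 73 channel genes whose higher genotype mean was at least 1, 46 lay below 0, or 63.0%, against 45.3% of protein-coding genes at that level. The median log2 fold change of those 73 genes was -0.10, a fold of 0.933 for Meis2-CKO over Ctrl, and that of the protein-coding genes was 0.01. These are descriptions of the deposited values with no test over the list. Summed over the 97 genes, the mean signal was 605 in Meis2-CKO and 653 in Ctrl. In the bulk tissue, fewer cells of a type and less RNA per cell cannot be told apart.

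The ratio of the means, Meis2-CKO over Ctrl, lay between 0.9 and 1.1 for 45 of 97 channel genes (46.4%), against 66.2% of all protein-coding genes. Among the 73 with a mean of at least 1 it did so for 37 (50.7%), against 71.1% of protein-coding genes above that minimum. This comparison had no test over the list and did not match levels. Of the 73 channel genes 19 reached 10, against 7681 of 12204 protein-coding genes. A deposited fold change of at least 1.5 either way was listed for 13 of 97 channel genes (13.4%), against 545 of 13643 protein-coding genes. Of these 13 genes, 8 were among the 24 channel genes with both means under 1, where little signal stands behind a ratio. That is 33.3% of the 24, against 260 of 1439 protein-coding genes at that level. At a mean of at least 1 there were 5 such channel genes, or 6.85% of 73, against 2.34% of protein-coding genes above that minimum. By level, they were 3 of 25 channel genes from 1 to under 3, against 131 of 1649 protein-coding genes. From 3 to under 10 they were 2 of 29, against 89 of 2874. At 10 or more they were 0 of 19, against 65 of 7681. Of the 5 channel genes, 3 were lower in Meis2-CKO (Kcnh1, Kcna6 and Cacna1e) and 2 were higher (Kcns2 and Kcnc2), and none passed the test. Kcnh1 reached the minimum only in Ctrl (1.18, against 0.283 in Meis2-CKO). Kcns2 reached it only in Meis2-CKO (1.3, against 0.658 in Ctrl). Both were counted through the genotype where they were higher, so the 6.85% leans partly on the difference being counted. The same minimum was applied to the protein-coding genes. By the ratio of the means there were 7 (9.59%, against 2.66% of protein-coding genes above that minimum), with Kcnd2 and Kcnma1 added, both lower in Meis2-CKO. Kcnma1 reached the minimum only in Ctrl (1.24, against 0.825 in Meis2-CKO). The median size of the log2 fold change was 0.25 for channel genes under 1 and 0.12 for those from 1 to under 3. It was 0.16 from 3 to under 10 and 0.12 for the 19 channel genes at 10 or more, with no steady fall above 1. For protein-coding genes it fell with each level, at 0.24, 0.16, 0.11 and 0.07.

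**Figure D1:**
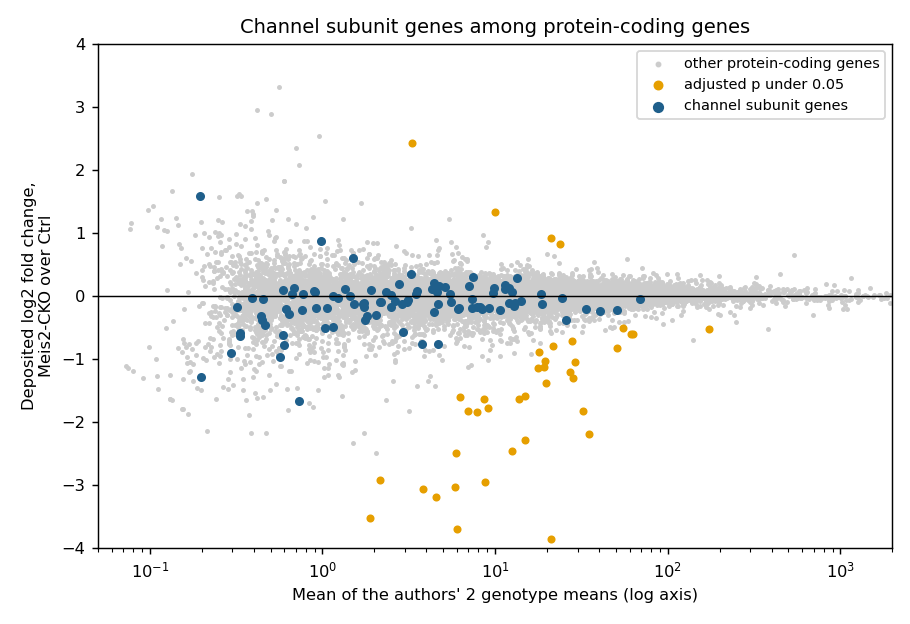
Deposited log2 fold change of Meis2-CKO over Ctrl (vertical) against the mean of the authors' genotype means (horizontal, log axis) for 13625 protein-coding genes, with 18 further genes outside the axes. Channel subunit genes are blue and genes past an adjusted p of 0.05 orange. No channel gene is among the orange points, and the channel genes farthest from 0 have low means.

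The highest levels belonged mostly to accessory subunits and calcium channel pores. The deposited means behave roughly as per-length values: with protein-coding genes split into 5 classes of exon length, the class median ran between 8.72 and 14.3 in Meis2-CKO and between 9.18 and 14.2 in Ctrl. Levels are compared between genes on this scale only, which still leans higher for long transcripts. Cacng7, a transmembrane AMPA receptor regulatory protein, had the highest mean of the 97 genes (67.4 in Meis2-CKO, 70.4 in Ctrl). Cacnb3, a cytoplasmic calcium channel beta subunit, also stood near the top (46.5 in Meis2-CKO, 54.5 in Ctrl). Cacng4, another AMPA receptor partner, and Cacna1h, a low-threshold T-type calcium channel, were in the upper range too. The small-conductance calcium-activated potassium channel gene Kcnn1 had means of similar size (24.0 in Meis2-CKO, 24.8 in Ctrl). Without spread per embryo it cannot be said which neighbours in this order differ.

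**Figure D2:**
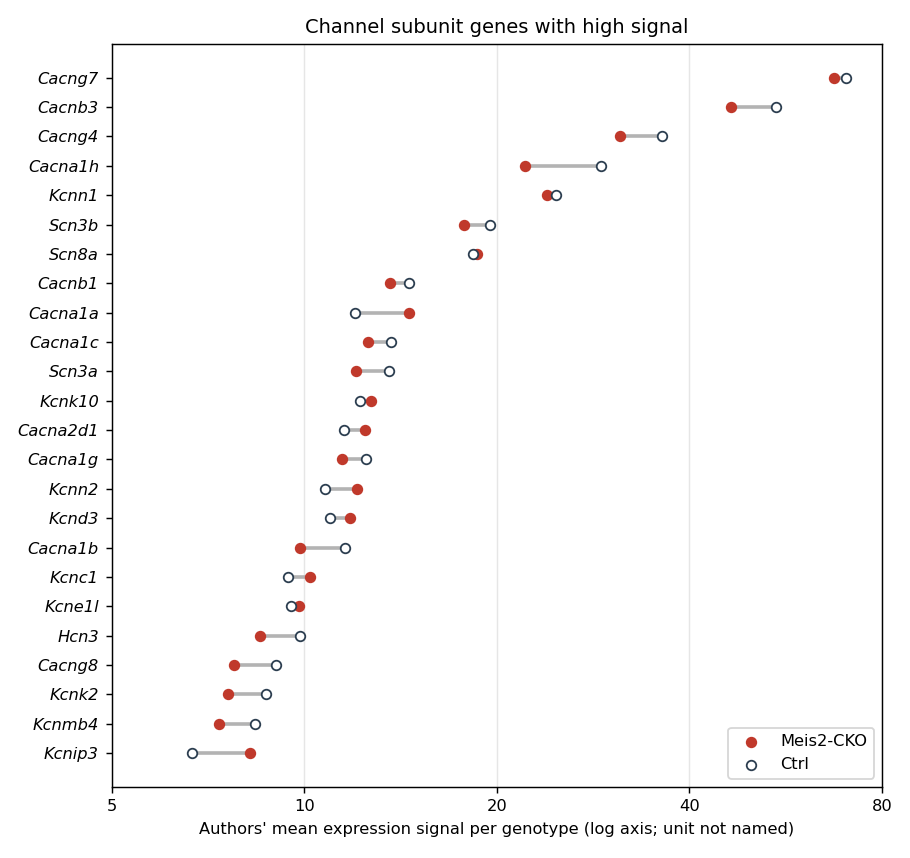
Authors' mean expression signal (horizontal, log axis) of 24 of the 25 channel subunit genes with the highest means, ordered from the top. Filled red points are Meis2-CKO and open points Ctrl, with no error because only genotype means are shown. Cacnb3, Cacng4 and Cacna1h stand lower in Meis2-CKO, and Cacna1a and Kcnip3 stand higher, none past the test.

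Pore-forming alpha1 subunits of calcium channels had mostly lower means in Meis2-CKO, and 7 of 8 listed genes had a log2 fold change below 0. Cacna1h (ENSMUSG00000024112, chromosome 17), the most abundant of them, averaged 22.2 in Meis2-CKO and 29.1 in Ctrl by the authors' deposited table (log2 change -0.38, p = 0.0608). Cacna1e, which encodes the R-type channel, averaged 3.41 in Meis2-CKO and 5.90 in Ctrl by the authors' deposited table (log2 change -0.75, p = 0.107). The exception was Cacna1a, the P/Q-type channel of nerve terminals, with 14.6 in Meis2-CKO and 12.02 in Ctrl by the authors' deposited table (log2 change 0.29, p = 0.300). Within this family Cacna1h thus had the smallest p and Cacna1a the only positive fold change, and no test compared them with each other. The N-type gene Cacna1b averaged 9.85 in Meis2-CKO and 11.6 in Ctrl, and the other T-type gene of some abundance, Cacna1g, 11.5 and 12.5. Both L-type genes lay below 0, with Cacna1c at 12.6 in Meis2-CKO and 13.6 in Ctrl and Cacna1d at 2.11 and 2.29. Cacna1i, also T-type, was low, at 0.563 in Meis2-CKO and 0.675 in Ctrl. The T-type genes made up 44.6% of the summed alpha1 signal in Meis2-CKO and 48.2% in Ctrl, the largest share of the 3 classes in both genotypes. The classes of Cacna1a, Cacna1b and Cacna1e made up 36.3% in Meis2-CKO and 33.6% in Ctrl.

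Accessory calcium channel subunits went both ways. Beta subunits bring alpha1 subunits to the membrane, and Cacnb3 held 66.0% of their summed signal in Meis2-CKO and 69.6% in Ctrl. Cacnb3 (chromosome 15, 98630840 to 98644529, GRCm38) had a log2 fold change of -0.22 (p = 0.129) in the authors' deposited table. Cacnb1 also stood lower in Meis2-CKO (13.6, against 14.6 in Ctrl), while Cacnb2 (2.95 and 2.58) and Cacnb4 (7.43 and 6.70) stood higher, in Meis2-CKO and Ctrl. The alpha2delta subunits, extracellular partners of alpha1 subunits, had 3 listed genes. Cacna2d1 averaged 12.5 in Meis2-CKO and 11.5 in Ctrl by the authors' deposited table (log2 change 0.12, p = 0.680), Cacna2d2 averaged 7.17 and 7.48, and Cacna2d3 averaged 4.49 and 4.17.

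The Cacng genes are named as calcium channel gamma subunits, but most of them encode partners of AMPA-type glutamate receptors. Below 0 were 6 of the 7 listed, and none passed the test. Cacng4 averaged 31.1 in Meis2-CKO and 36.2 in Ctrl by the authors' deposited table (log2 change -0.21, p = 0.242). Cacng7 differed by -0.05 on the log2 scale (p = 0.688) in the authors' deposited table despite the highest level of all. Cacng8 averaged 7.77 in Meis2-CKO and 9.05 in Ctrl. Cacng2, whose loss causes the stargazer phenotype in mice, averaged 2.51 in Meis2-CKO and 2.49 in Ctrl, and Cacng3 averaged 1.63 and 1.86. The skeletal muscle subunit gene Cacng1 (0.240 in Meis2-CKO, 0.428 in Ctrl) and Cacng5 (0.370 and 0.563) were near the bottom of the list.

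No sodium channel gene passed the test. Of 7 alpha subunit genes 6 had a log2 fold change below 0, and Scn8a, the alpha subunit of mature axon initial segments, was the exception. Scn8a had the highest mean of them, at 18.6 in Meis2-CKO and 18.3 in Ctrl by the authors' deposited table (log2 change 0.03, p = 0.890), or 49.1% of the summed alpha signal in Meis2-CKO and 45.5% in Ctrl. Scn3a, known as the embryonic brain isoform, averaged 12.1 in Meis2-CKO and 13.6 in Ctrl. Scn2a (2.75 in Meis2-CKO, 3.05 in Ctrl) and Scn1a (2.54 and 2.71) were several times lower than these. The sensory neuron genes Scn9a (0.438 in Meis2-CKO, 0.743 in Ctrl) and Scn10a (0.0625 and 0.335) were lowest. Scn10a had a log2 fold change of -1.29 (p = 0.368) in the authors' deposited table at a level near 0. Among the beta subunits, which tether the channel to adhesion and cytoskeletal proteins, Scn3b held most of the signal, with 17.8 in Meis2-CKO and 19.5 in Ctrl by the authors' deposited table (log2 change -0.12, p = 0.604). Scn2b averaged 1.59 in Meis2-CKO and 2.03 in Ctrl.

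No pore-forming Kv gene passed the test, and the median of the family depended on the level taken. Of 25 genes 18 had a mean of at least 1, and 9 of these lay above 0 and 9 below, with a median of 0.01. The median was -0.10 both over all 25 genes and over those with a mean of at least 2, and the summed signal of the family was 110.9 in Meis2-CKO and 121.8 in Ctrl. In the Kcnq class, whose products form slow, non-inactivating potassium channels, Kcnq3 averaged 5.53 in Meis2-CKO and 5.43 in Ctrl, Kcnq5 averaged 0.613 and 0.570, and Kcnq1, the cardiac and epithelial member, averaged 0.560 and 0.713. Kcnh1, an ether-a-go-go channel, had the lowest log2 fold change of all channel genes, at -1.67 (p = 0.126) in the authors' deposited table. Its means were 0.283 in Meis2-CKO and 1.18 in Ctrl, and with a pseudocount of 1 the value was -0.77. The relatives Kcnh2 (6.83 in Meis2-CKO, 7.91 in Ctrl) and Kcnh4 (5.66 and 6.58), which stood at higher levels, also lay below 0. Kcnh7 (3.64 and 3.46), Kcnh8 (2.08 and 2.25) and Kcnh3 (0.688 and 0.830) completed that group.

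Among the shaker-related genes, Kcna6, a delayed rectifier, averaged 2.77 in Meis2-CKO and 4.8 in Ctrl by the authors' deposited table (log2 change -0.76, p = 0.143). Its relatives Kcna3 (4.70 in Meis2-CKO, 4.53 in Ctrl) and Kcna2 (1.40 and 1.3) stood slightly above 0. Kcna1 (0.293 in Meis2-CKO, 0.350 in Ctrl), Kcna4 (0.168 and 0.423) and Kcna5 (0.233 and 0.433) were near the bottom of the list. Kcnd2, which with Kcnd3 forms the A-type channels that delay firing, averaged 2.32 in Meis2-CKO and 3.52 in Ctrl by the authors' deposited table (log2 change -0.56, p = 0.330). Kcnd3 was the more abundant of the pair and lay the other way, at 11.8 in Meis2-CKO and 11.0 in Ctrl, and Kcnd1 had close means (1.44 and 1.46). In the fast-deactivating Kcnc class, Kcnc2 averaged 1.84 in Meis2-CKO and 1.18 in Ctrl by the authors' deposited table (log2 change 0.60, p = 0.439). Kcnc1, of the same class, averaged 10.2 in Meis2-CKO and 9.44 in Ctrl. Kcnb2, a delayed rectifier, averaged 0.383 in Meis2-CKO and 0.395 in Ctrl.

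The modulatory Kv genes, whose products work only together with other Kv subunits, were low. Kcns2 averaged 1.3 in Meis2-CKO and 0.658 in Ctrl by the authors' deposited table (log2 change 0.88, p = 0.348). This was the highest fold change among channel genes whose higher genotype mean was at least 1, a minimum it reached only in Meis2-CKO. Kcng1 averaged 3.50 in Meis2-CKO and 3.47 in Ctrl by the authors' deposited table (log2 change 0.03, p = 0.962). Kcnf1 (0.988 in Meis2-CKO, 1.15 in Ctrl), Kcng2 (0.340 and 0.793) and Kcnv1 (0.715 and 0.653) were lower still.

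Among accessory potassium channel genes, the KChIP proteins are calcium sensors that load onto A-type channels. Kcnip3 averaged 8.22 in Meis2-CKO and 6.69 in Ctrl by the authors' deposited table (log2 change 0.31, p = 0.406). Kcnip1 (4.44 in Meis2-CKO, 4.91 in Ctrl) and Kcnip2 (1.51 and 2.01) lay the other way, and Kcnip4 had close means (0.778 and 0.763). Kcne1l, an X-linked single-span subunit, was the most abundant of this group, with 9.81 in Meis2-CKO and 9.52 in Ctrl by the authors' deposited table (log2 change 0.05, p = 0.867). Of the cytoplasmic Kv beta subunits, Kcnab2 averaged 5.32 in Meis2-CKO and 5.76 in Ctrl, Kcnab3 averaged 4.73 and 4.11, and Kcnab1 averaged 0.403 and 0.788. Kcnrg, a regulator that lowers Kv currents, averaged 3.07 in Meis2-CKO and 3.22 in Ctrl, and Kcne3 averaged 0.375 and 0.50.

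Inward rectifiers are a hallmark of adult striatal projection neurons. The 7 listed genes of this class, out of 15 annotated, were at low levels in this embryonic tissue, and the others have no values here. Kcnj10, a glial channel, was the most abundant, with 4.98 in Meis2-CKO and 4.47 in Ctrl by the authors' deposited table (log2 change 0.16, p = 0.722). Kcnj2 averaged 0.915 in Meis2-CKO and 0.868 in Ctrl, and the G-protein-gated genes Kcnj3 (1.67 and 1.82) and Kcnj9 (0.848 and 0.988) were also low. The ATP-sensitive pore genes were Kcnj11 (2.32 in Meis2-CKO, 2.67 in Ctrl) and the pericyte-enriched Kcnj8 (1.64 and 1.81). Kcnj13, best known from choroid plexus and retinal pigment epithelium, had the highest log2 fold change of all channel genes, at 1.59 (p = 0.267) in the authors' deposited table, yet its means were only 0.355 in Meis2-CKO and 0.0350 in Ctrl. Its exons overlap those of Gigyf2 on the opposite strand, and because strand is not stated for the counting, reads of the pair cannot be separated. Of 5 choroid plexus markers 1 was listed, Otx2, at 7.50 in Meis2-CKO and 7.78 in Ctrl.

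The K2P channels set resting conductance. Kcnk10 held 47.8% of their summed signal in Meis2-CKO and 45.2% in Ctrl, with means of 12.7 in Meis2-CKO and 12.2 in Ctrl by the authors' deposited table (log2 change 0.07, p = 0.802). Its close relative Kcnk2 averaged 7.61 in Meis2-CKO and 8.71 in Ctrl. Kcnk5, an alkaline-activated channel, averaged 3.66 in Meis2-CKO and 2.87 in Ctrl by the authors' deposited table (log2 change 0.35, p = 0.520). Kcnk1 averaged 1.81 in Meis2-CKO and 2.28 in Ctrl, Kcnk12 averaged 0.370 and 0.525, and Kcnk3 averaged 0.440 and 0.463.

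Calcium-activated potassium channels couple calcium entry to repolarization. Their small-conductance class held most of the signal, 69.8% of the family sum in Meis2-CKO and 66.1% in Ctrl. Kcnn1 had a log2 fold change of -0.04 (p = 0.864) in the authors' deposited table. Kcnn2 averaged 12.1 in Meis2-CKO and 10.8 in Ctrl, and Kcnn3 averaged 2.36 and 2.28. All 3 genes of the large-conductance class lay below 0. Kcnma1, its pore subunit, averaged 0.825 in Meis2-CKO and 1.24 in Ctrl by the authors' deposited table (log2 change -0.51, p = 0.568). Its accessory genes were Kcnmb4 (7.35 in Meis2-CKO, 8.38 in Ctrl) and Kcnmb2 (0.928 and 1.37), so the accessory Kcnmb4 had the higher mean signal. The exons of Kcnmb4 overlap the antisense gene Kcnmb4os2, which averaged 1.51 in Meis2-CKO and 2.61 in Ctrl. The sodium-activated channel gene Kcnt1 averaged 5.73 in Meis2-CKO and 6.59 in Ctrl, and Kcnt2 averaged 0.668 and 0.658. Kcnu1, known from sperm, averaged 1.15 in both genotypes. The 3 listed HCN genes all lay below 0. Hcn3 averaged 8.52 in Meis2-CKO and 9.86 in Ctrl by the authors' deposited table (log2 change -0.20, p = 0.556), Hcn4 averaged 4.05 and 4.86, and Hcn2 averaged 1.22 and 1.26.

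**Figure D3:**
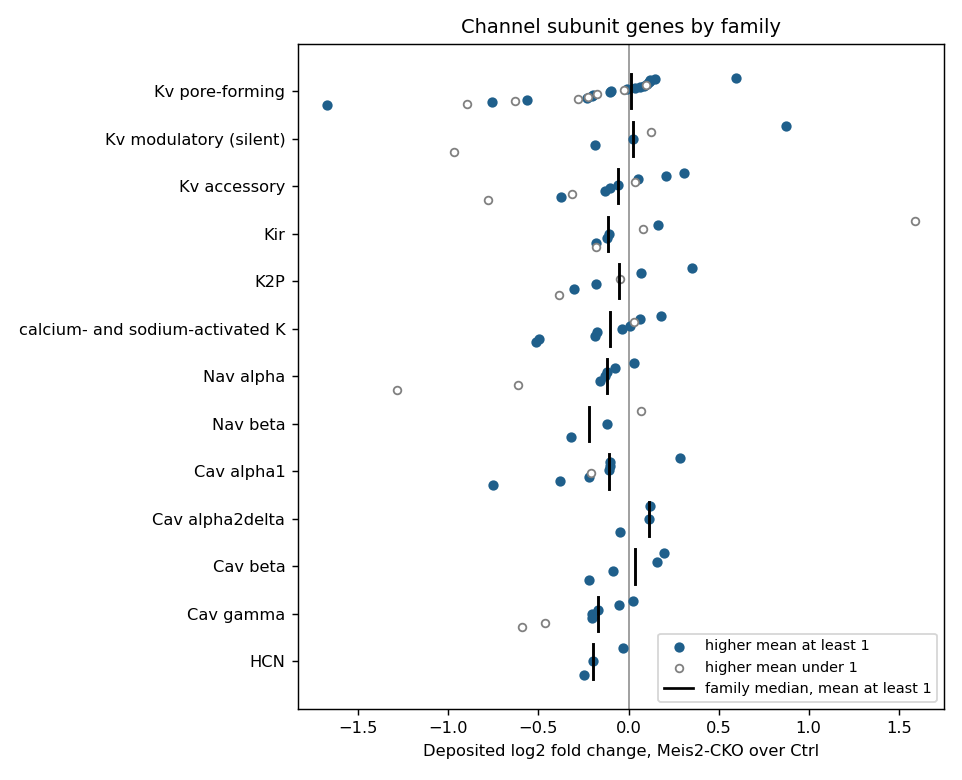
Deposited log2 fold change of Meis2-CKO over Ctrl for each of the 97 channel subunit genes, by family. Filled points have a higher genotype mean of at least 1, open points lie under 1, and black bars are family medians over the filled points. The bars lie below 0 in 9 of 13 families, and the points farthest from 0 on the right and left are low-level genes such as Kcnj13 and Kcnh1.

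By family, the medians over genes with a mean of at least 1 lay between -0.22 (Nav beta, 2 genes) and 0.11 (alpha2delta, 3 genes), and 9 of 13 were below 0. In 17 of 97 channel genes, exons overlap exons of another listed gene on the opposite strand, among them Kcnn1, Kcnn2, Kcnd3, Kcnab3, Cacnb1 and Cacnb4, and the values of these genes are uncertain to that extent.

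Several channel genes lie beside relatives in the genome and yet differ widely in level. With neighbours taken as members of any family within 1 Mb, 26 of the 97 genes fell into 11 groups. Some of these groups join different families, such as Cacnb3 with Kcnh3, Hcn3 with Kcnn3 and Kcnj11 with Kcnc1. On chromosome 11 (GRCm38), Cacng4 (107732357 to 107794557) lies between Cacng1 (107703218 to 107716522) and Cacng5 (107874605 to 107915055). Cacng4 was among the most abundant channel genes in both genotypes while both flanking genes had means under 1. On chromosome 2, Scn3a (65457118 to 65567627), Scn2a (65620771 to 65767447), Scn1a (66270778 to 66440840) and Scn9a (66480080 to 66634962) form a cluster. All 4 had a log2 fold change below 0 in the authors' deposited table, between -0.61 for Scn9a and -0.08 for Scn1a. On chromosome 6, Kcna6 (126708329 to 126740674) was the most abundant of the neighbours Kcna5, Kcna1 and Kcna6, and all 3 lay below 0. On chromosome 7, Cacng7 (3332955 to 3368221) lies beside Cacng8 (3390683 to 3415648), whose mean was several times lower.

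Genes whose products work with these channels were set beside them. Of 38 partner genes (channel-clustering proteins, fibroblast growth factor homologous factors, the sodium leak complex, pumps and chloride transporters) 34 were listed, 21 with a log2 fold change below 0 and 13 above it, with a median of -0.04. None passed the test over all genes, and 1 had an unadjusted p under 0.05. That gene was Cntnap2, which clusters shaker-type potassium channels along axons and averaged 38.4 in Meis2-CKO and 54.7 in Ctrl by the authors' deposited table (log2 change -0.50, adjusted p = 0.115). Ank3, the ankyrin that anchors sodium channels at the axon initial segment, averaged 45.4 in Meis2-CKO and 52.6 in Ctrl by the authors' deposited table (log2 change -0.20, p = 0.173). Fgf14, which binds sodium channel tails, averaged 2.42 in Meis2-CKO and 4.19 in Ctrl by the authors' deposited table (log2 change -0.75, p = 0.173). Rest, a repressor of neuronal genes that include sodium channels, averaged 4.27 in Meis2-CKO and 4.14 in Ctrl.

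Neuronal markers lay mostly below 0 and progenitor markers above it in the same comparison. Of 8 neuronal markers 6 had a log2 fold change below 0 (median -0.10), while Map2 (0.07) and Dcx (0.06) lay above it. The summed signal of the 8 was 1530 in Meis2-CKO and 1683 in Ctrl, of which Tubb3 alone gave 801 in Meis2-CKO and 887 in Ctrl. Of 8 progenitor markers all had a log2 fold change above 0 (median 0.22), with sums of 1786 in Meis2-CKO and 1573 in Ctrl, and neither list had a gene past the adjusted threshold, with 3 neuronal and 1 progenitor marker at an unadjusted p under 0.05. Of 8 striatal lineage markers 7 lay below 0 and 5 fell past the threshold, led by Isl1 and Ebf1. The part of these differences in the channel values was not tested. Endothelial markers summed to 40.7 in Meis2-CKO and 39.96 in Ctrl, pericyte markers to 28.5 and 27.0, microglial markers to 32.7 and 31.8, red blood cell markers to 2709 and 2695, and oligodendrocyte lineage markers to 33.4 and 32.4. Pallial glutamatergic markers summed to 159 in Meis2-CKO and 138 in Ctrl, and meningeal fibroblast markers to 1.45 and 3.29. None of these other cell type lists had a gene past the adjusted threshold, and 1 pallial marker had an unadjusted p under 0.05.

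**Figure D4:**
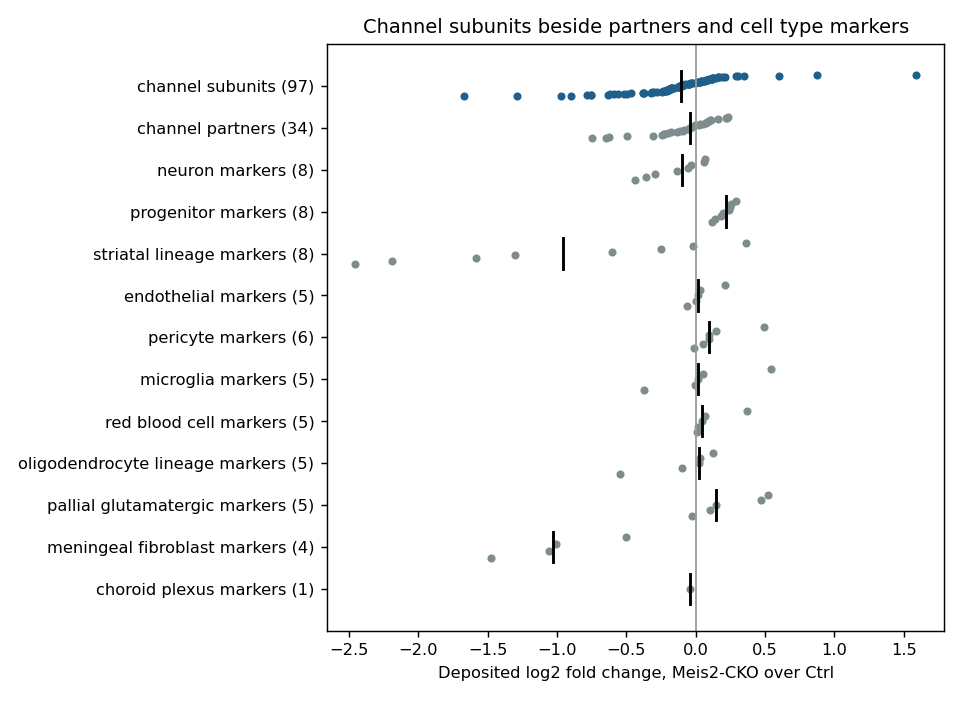
Deposited log2 fold change of Meis2-CKO over Ctrl for the channel subunit genes, their partner genes and markers of cell types, with the number of listed genes in brackets and medians as black bars. Medians lie below 0 for channel subunits (-0.10), partner genes (-0.04), and neuronal (-0.10) and striatal lineage (-0.95) markers. The same holds for meningeal fibroblast (-1.03) and choroid plexus (-0.04, 1 gene) markers. Every other list has a median above 0, the highest being that of the progenitor markers (0.22).

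Meis-type homeodomain proteins bind the core letters TGACAG, and promoters were searched for them on both strands (TGACAG or CTGTCA) in RefSeq windows of 300 bases on GRCm38.p6, from 250 before to 50 after the start. Of the 97 channel genes 67 had a window, and 13 of these, or 19.4%, held the letters in at least 1 window. Among protein-coding genes of the table the share was 19.6%, and by window it was 14.4% for channel genes and 16.7% for protein-coding genes of the table. A match is a description of letters and says nothing about binding.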

How the data were processed

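RNA-seq of 8 LGE samples (4 Meis2-CKO, 4 Ctrl) was analysed from 1 table of 16913 genes. The deposited mean expression signal per genotype was averaged by the authors, per the file headers, which name no unit; the depth is unknown. Log2 fold changes, like the p-value columns, were used as the authors deposited them. The submitters' processing notes name StringTie 1.3.1, HISAT2 2.1.0, FastQC 0.11.5, mm10 and GRCm38.p2, with no role for any. Recomputing the Benjamini-Hochberg adjustment over all genes returned the deposited adjusted p. The deposited log2 fold change exceeds the log2 ratio of the means by a median of 0.0124 over the 7657 genes above 10 in both genotypes, the size of the difference between the column sums (0.0124), so for 1 channel gene (Kcnu1) the signs differ. At low levels it can be far smaller in size than that ratio, as for Kcnj13, with a ratio of 10.1 and a deposited fold of 3.01. In addition, 8 columns of single libraries match no sample label and were not used, so no model per library was run, and calls rest on the authors' adjusted p at 0.05.

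Channel genes, families and lists were chosen with earlier results of these data known. Genes described with a p were those past the threshold, the member of highest mean in each family, the 10 smallest p, the 5 highest and 5 lowest fold changes at a mean of at least 1, and the partner genes with the 3 smallest p; other members are given by their means, except that 6 members, counted in every summary, are not reported here by name. Scn10a was singled out after its values were seen. Gene places came from GENCODE M21 on GRCm38, matched by gene ID for all 97. Adjustment code was tested on simulated data. Tables were handled in pandas 2.3.3 and numpy 2.4.6 under Python 3.11.15, and plots drawn with matplotlib 3.10.9.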

Additional observations from a re-analysis of the deposited data

How the results depend on the processing

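No channel gene passed the threshold under any alternative tried: protein-coding genes only, a mean of at least 1 or at least 2, the Benjamini-Yekutieli adjustment, and a fold change of at least 1.5. None of these could have added a call. An adjusted p is never below its unadjusted p, the smallest of which was 0.0608 (Cacna1h), and a fold change minimum only removes calls. The median log2 fold change of channel genes, -0.10 at a mean of at least 1, was -0.08 with a pseudocount of 1 (-0.0824) and -0.11 when centred on the median of all genes (-0.112). The share of channel genes below 0 lay between 62.1% and 64.9% over these settings, while that of protein-coding genes at the same settings lay between 44.8% and 49.6%. Families with a median below 0 numbered 9 or 10 of 13, and only the pore-forming Kv family changed sign. All 25 channel genes under the naming rule kept their direction with a pseudocount of 1 and after centring, but neither step could have reversed them. A pseudocount does not change which mean is higher. Centring moved every value by only 0.0117, less than the smallest size among the 25 (0.025, Kcng1). Leaving out each replicate was not run, because columns of single libraries could not be tied to samples. No paired analysis was possible because those columns carry no replicate number from the labels. Depth is unknown, so no detection limit is given; genes with means under 1 carry little signal and their ratios are the least certain.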
